A study of Mus musculus with 2 samples.

Results

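The genes of the mGluR6 and TRPM1 cascade, by which ON bipolar cells of the retina answer light, were described in single cells of control and diabetic mouse retina. They were chosen by symbol (Grm6, Nyx, Gpr179, Gnao1, Gng13, Rgs7, Rgs11, Trpm1, Pcp2 and Prkca), and all 10 were found among the 17087 genes of the count table. Diabetes was modelled with streptozotocin (STZ), a toxin of the insulin-producing cells of the pancreas, injected into the peritoneum of male C57BL/6 mice at 3 to 5 weeks of age at 55 mg/kg. Blood glucose above 300 mg/dL counted as diabetic, and glucose stayed high for 25 weeks before the retinas were taken. The control group was untreated C57BL/6 mice. Each group was 1 library of droplet single-cell RNA-seq for which the cells of 3 retinas were pooled. A single library per group allows no replicate check, so no test between groups was run. Each interval below is a 95% interval that covers counting error only.

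ON bipolar cells receive glutamate from photoreceptors through the metabotropic receptor mGluR6, encoded by Grm6, at the tips of their dendrites. In the dark, glutamate keeps the receptor and its G protein Go active, which keeps the cation channel TRPM1 closed. Light lowers glutamate, RGS proteins help to switch Go off, and the channel opens. Nyctalopin (Nyx) and GPR179 help to hold receptor, channel and RGS proteins together at the synapse, and loss of Grm6, Nyx, Gpr179 or Trpm1 causes congenital stationary night blindness. Gnao1 encodes the alpha subunit of Go and Gng13 a gamma subunit. Pcp2 encodes a modulator of Go, and Prkca encodes protein kinase C alpha, the standard protein marker of rod bipolar cells. OFF bipolar cells use ionotropic glutamate receptors in place of this cascade.

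The genes lie on 6 chromosomes of build GRCm38 (mm10). Grm6 is at chr11:50850685-50866208 and Trpm1 at chr7:64153835-64269775, both on the plus strand. The 250 bases before their starts, from RefSeq on GRCm38.p6, are shown because these genes encode the input and the output of the cascade. RefSeq promoter windows were found for 9 of the 10 genes, 14 windows in all. Both strands were searched for TAATCC, the core recognised by homeobox factors of the OTX family, and for TAATTA, a core of other homeobox factors. In the printed Trpm1 window (chr7:64153585-64153834, plus strand) the capitals mark TAATCC read on the minus strand, 34 bases before the start. Another Trpm1 window (chr7:64185209-64185458, plus strand), which overlaps an exon and is not printed, holds neither set of letters. The Grm6 window (chr11:50850435-50850684, plus strand) holds neither set of letters.
Grm6: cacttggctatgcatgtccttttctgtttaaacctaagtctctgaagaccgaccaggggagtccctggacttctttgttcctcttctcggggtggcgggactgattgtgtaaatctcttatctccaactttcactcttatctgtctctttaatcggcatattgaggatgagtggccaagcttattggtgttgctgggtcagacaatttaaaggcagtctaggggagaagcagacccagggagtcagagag
Trpm1: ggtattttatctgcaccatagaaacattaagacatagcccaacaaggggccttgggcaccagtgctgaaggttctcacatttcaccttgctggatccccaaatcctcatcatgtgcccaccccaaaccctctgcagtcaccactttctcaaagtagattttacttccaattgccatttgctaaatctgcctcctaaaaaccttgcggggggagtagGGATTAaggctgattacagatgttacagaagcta
Of all 32851 promoter windows of this length, 6.25% held TAATCC and 4.84% held TAATTA. Among the 14 windows of these genes, 1 held TAATCC and 1, of Pcp2, held TAATTA.

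Cell numbers and depth differed between the libraries. There were 7169 control cells (median 3800 UMIs, the tags that count transcripts) and 12393 STZ cells (median 2062), of which 5286 and 8232 were kept, and 21 barcodes occurred in both libraries, 9 of them in bipolar cells that were kept. Cells were clustered without the 10 genes and without 32 other cascade genes, and clusters were named from markers that hold none of the 10, so their own levels did not place them in a class. Rod bipolar-like cells numbered 910 in control and 809 in STZ, ON cone bipolar-like cells 908 and 1116, and OFF cone bipolar-like cells 351 and 487. Of the markers used for the names, Isl1 and Grik1 separated the ON from the OFF clusters, but not all did. The ON cone marker Scgn was at 549.9 and 1536 CPM in control OFF clusters 5 and 11 and at 50.4 in ON cluster 15, and the OFF marker Vsx1 was at 789 and 718 in ON clusters 8 and 16. CPM are the UMIs of a gene scaled to a common total of UMIs per class or cluster. Isl1, a homeobox gene of ON bipolar cells, was at 446 to 1049.6 CPM in the control rod and ON cone bipolar clusters and at 7.37 and 19.3 in OFF clusters 5 and 11. Grik1, a kainate receptor gene of OFF cells, was at 0 to 32.3 CPM in the former and at 1700.2 and 1239 in the latter. CPM is not scaled by gene length, so levels are compared here between cells and not between genes.

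Taken as classes, ON cells were higher than OFF cells for the whole set, with the exceptions named here. Single clusters, described below, did not all follow this order. Rod bipolar-like cells were at least 1.5-fold higher than OFF cone bipolar-like cells for 10 of 10 genes in both libraries, against 12% of all measured genes in control and 10.1% in STZ, and lower for 0 (24.7% and 22.5%). ON cone bipolar-like cells were higher than OFF cone bipolar-like cells for 8 of 10 genes in control (10.3% of all genes) and 9 of 10 in STZ (8.76%), and lower for 0 (8.65% and 7.54%). The genes that missed the threshold were Rgs7 in both libraries and Prkca in control. Rod bipolar-like cells were higher than ON cone bipolar-like cells for 6 of 10 genes in control (8.23%) and 7 in STZ (7.16%), and lower for 1, Nyx, in both libraries (21.4% and 20.7%). Together the 10 genes held 3.01% of all UMIs of control and 3.03% of STZ rod bipolar-like cells, 1.01% and 0.882% in ON cone bipolar-like cells, and 0.273% and 0.295% in OFF cone bipolar-like cells.

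**Figure D1:**
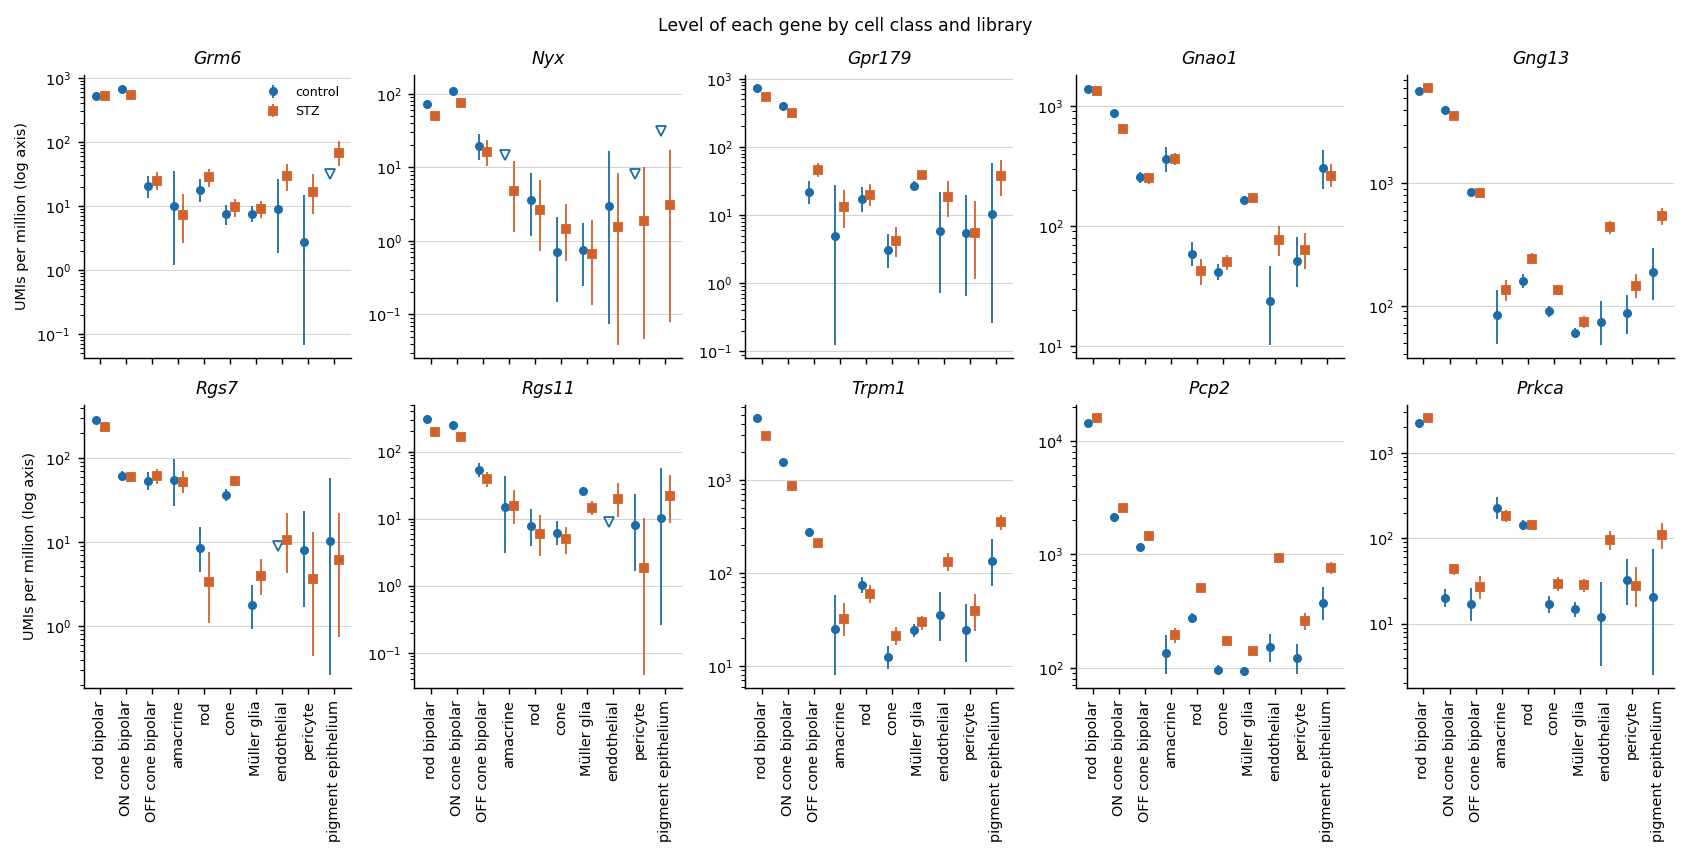
Level of each of the 10 genes (CPM, log axis) in 10 cell classes, control library as circles and STZ library as squares, with 95% exact Poisson intervals; open triangles mark a class with no UMI, drawn at the level 3 UMIs would give. Rod bipolar-like cells have the highest level of every gene except Grm6 and Nyx, whose highest values are in ON cone bipolar-like cells.

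Grm6, the receptor gene, was highest in ON cone bipolar-like cells and low in OFF cells. In control it was at 682 (655 to 709.9) CPM in ON cone, 527 (505 to 549) in rod and 20.3 (13.3 to 29.7) in OFF cone bipolar-like cells. In STZ the levels were 534 (512 to 557), 526 (502 to 552) and 24.7 (17.6 to 33.6) CPM. ON cone and rod bipolar-like cells differed beyond counting error in control, while their intervals overlapped in STZ. The log2 ratio of STZ over control was -0.00088 (-0.09 to 0.09) in rod bipolar-like cells and -0.35 (-0.44 to -0.27) in ON cone bipolar-like cells. The rod bipolar value changed to -0.35 when cells were thinned to 500 UMIs and to 0.23 in cells with few mitochondrial UMIs. Both values rest on fewer UMIs, with counting error of their own that is not given, and thinning was a random draw made once. Without thinning, the mean over cells in rod bipolar cluster 2 was 555 CPM in control and 543 in STZ. Among ON cone bipolar clusters Grm6 ran from 392 CPM in cluster 24 to 1041 in cluster 8 in control, and from 273 to 816 in the same clusters in STZ. Clusters 4 and 16 had 438 and 517 CPM in control. These 2 clusters and cluster 24 were thus not above rod bipolar cluster 2, at 528. Cluster 8 was led by Cck, Cnmd and Tnnt1.

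Nyx, which encodes a leucine-rich repeat protein at the cell surface, had the same order of classes. It was at 111 (100.4 to 123) CPM in control and 75.3 (67.1 to 84.2) in STZ in ON cone bipolar-like cells. Rod bipolar-like cells had 73.2 (65.2 to 82.0) and 49.6 (42.3 to 57.7), and OFF cone bipolar-like cells 19.5 (12.6 to 28.8) and 16.0 (10.5 to 23.5). Values were lower in STZ in both ON classes, with log2 ratios of -0.56 (-0.85 to -0.28) in rod and -0.56 (-0.78 to -0.34) in ON cone bipolar-like cells, just inside the 1.5-fold threshold of 0.585. Cluster 4, an ON cone cluster with Kcng4, Htr3a and Neurod2 among its leading genes, stood apart with 195 (169 to 225) CPM in control and 120.0 (101.2 to 141) in STZ. The other ON cone clusters had 69.0 to 84.5 and 48.3 to 68.6. Within OFF cells Nyx was at 45.0 and 31.2 CPM in cluster 11 and at 4.91 and 5.26 in cluster 5.

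Gpr179, which encodes an orphan receptor that anchors RGS proteins, was highest in rod bipolar-like cells, at 719 (694 to 746) CPM in control and 532 (508 to 557) in STZ. ON cone bipolar-like cells had 401 (381 to 423) and 317 (299.9 to 335). The log2 ratios were -0.44 (-0.52 to -0.35) and -0.34 (-0.45 to -0.23), both lower in STZ and short of 1.5-fold. OFF cone bipolar-like cells had 21.9 CPM (28 UMIs) in control and 46.2 (75 UMIs) in STZ, a log2 ratio of 1.08 (0.44 to 1.76). This is the opposite direction at a far lower level. Müller glia-like cells had 27.1 (23.4 to 31.4) and 38.8 (33.3 to 44.9) CPM, which overlaps the OFF cone bipolar-like cells of the same library, while cone-like cells had 3.10 and 4.17.

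The G protein genes differed little between libraries in rod bipolar-like cells. Gnao1 was at 1389 (1353 to 1425) CPM in control and 1326 (1287 to 1365) in STZ, a log2 ratio of -0.07 (-0.12 to -0.01). Gng13 was at 5713 (5640.2 to 5787) and 6003 (5920.1 to 6086), a ratio of 0.07 (0.04 to 0.10). In ON cone bipolar-like cells Gnao1 was lower in STZ by more, at 865 and 647 CPM and -0.42 (-0.49 to -0.34), with negative ratios in all 5 clusters (-0.49 to -0.24). Gng13 was at 3976 and 3550.5 there, -0.16 (-0.20 to -0.13). Gnao1 was also widespread outside ON cells. Amacrine-like cells had 361 and 363 CPM, pigment epithelium-like cells 301 and 263, OFF cone bipolar-like cells 254 and 249, and Müller glia-like cells 163 and 169. Gng13 was at 843 and 838 CPM in OFF cone bipolar-like cells.

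Rgs7 and Rgs11 encode proteins that speed the switching off of Go, and their distributions differed. Rgs7 was at 289 (273 to 306) CPM in control and 238 (221 to 255) in STZ in rod bipolar-like cells, a log2 ratio of -0.28 (-0.41 to -0.15). ON cone bipolar-like cells had 61.2 (53.3 to 69.9) and 59.8 (52.5 to 67.8), and OFF cone bipolar-like cells 53.9 (41.9 to 68.2) and 61.0 (49.6 to 74.3). The cone bipolar classes overlapped in both libraries, and amacrine-like cells lay close to them at 54.4 and 52.6 CPM. Rgs11 separated ON from OFF cells as classes, though not in every cluster. It was at 305 (289 to 323) and 197 (182 to 213) CPM in rod, 248 (231 to 265) and 167 (154 to 179.7) in ON cone, and 53.9 (41.9 to 68.2) and 38.8 (29.8 to 49.7) in OFF cone bipolar-like cells. Its log2 ratio was -0.63 (-0.77 to -0.49) in rod bipolar-like cells, 1.55-fold lower (1.41 to 1.71), and -0.57 (-0.72 to -0.42) in ON cone bipolar-like cells. By cluster, ON cluster 4 had Rgs11 at 107.5 (87.9 to 130.3) CPM in control and 68.4 (54.4 to 84.9) in STZ. Its interval overlapped that of OFF cluster 5 in control, 67.5 (50.9 to 87.9), and that of OFF cluster 11 in STZ, 41.6 (27.7 to 60.2).

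The balance of the RGS transcripts differed widely among ON cone clusters, and cluster 4 lay close to rod bipolar-like cells. There were 1.06 Rgs11 UMIs per Rgs7 UMI in control rod bipolar-like cells and 4.05 in control ON cone bipolar-like cells, and 0.829 and 2.79 in STZ. Among ON cone clusters this quotient ran from 1.42 in cluster 4 to 23.2 in cluster 16 in control, and from 0.707 to 9.67 in STZ. Cluster 16, led by Pcdh17, Igfn1 and Wnt4, had Rgs7 at 11.7 CPM (8 UMIs) and 23.5 (18 UMIs), so its quotient rests on few UMIs. Rgs11 overlaps Arhgdig on the opposite strand, and whether counting used strand is not given in the sources used here. Arhgdig was at 31.4 CPM in control and 33.7 in STZ in rod bipolar-like cells, and at 63.7 and 49.6 in ON cone bipolar-like cells, where it was lower in STZ as Rgs11 was. The part of shared reads in the Rgs11 values was not tested.

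Trpm1, the channel gene, had the lowest ratio of the 10 genes in both ON classes, in rod bipolar-like cells with an interval inside that of Rgs11. In rod bipolar-like cells it was at 4592 (4526 to 4658) CPM in control (18872 UMIs) and 2932 (2875 to 2991) in STZ (9820 UMIs), 1.57-fold lower (1.53 to 1.60), a log2 ratio of -0.65 (-0.68 to -0.61). The median rod bipolar-like cell held 20 Trpm1 UMIs in control and 11 in STZ, at median totals of 4616.5 and 4313 UMIs per cell. ON cone bipolar-like cells had 1545 (1504 to 1587) and 848 (819.7 to 877) CPM, 1.82-fold lower (1.75 to 1.90), a log2 ratio of -0.87 (-0.93 to -0.80). OFF cone bipolar-like cells had 272 (245 to 303) and 209 (187 to 232), a ratio of -0.38 (-0.60 to -0.16). Rod, ON cone and OFF cone bipolar-like cells kept this order in both libraries with no overlap of intervals.

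In ON cone cluster 24 the channel transcript was scarce while the receptor transcript was present. The cluster held 61 control and 167 STZ cells and was led by Tmem200a, Rbp4 and Adarb2, with Isl1 at 538 and 685 CPM and the OFF gene Grik1 at 0 and 12.99. Trpm1 was at 84.5 (50.9 to 132) CPM in control (19 UMIs) and 113 (86.6 to 145) in STZ (61 UMIs). The other ON cone clusters had 913 to 2485 CPM in control and 655 to 1421 in STZ, so cluster 24 lay far below each of them in both libraries. In control it also lay below OFF clusters 5 and 11, at 174 (147 to 205) and 444 (385 to 508) CPM. In STZ these had 121 (99.95 to 145) and 333 (291 to 380), and the interval of cluster 5 overlapped that of cluster 24. The Grm6 level of cluster 24 was 392 (314 to 482) and 273 (230.4 to 321) CPM, and Gng13, Gpr179, Nyx and Rgs11 were present too, at 4161, 334, 84.5 and 178 CPM in control. There were 0.216 Trpm1 UMIs per Grm6 UMI in control and 0.415 in STZ, against 1.77 to 2.75 and 1.24 to 2.31 in the other ON cone clusters and 8.72 and 5.57 in rod bipolar-like cells. A Trpm1 UMI was seen in 16.4% (8.15 to 28.1) of its control cells and 22.8% (16.6 to 29.9) of its STZ cells, at median depths of 3784 and 3277 UMIs. In Müller glia-like cells, which should lack the gene, the shares were 11.5% (9.67 to 13.5) and 14.2% (11.9 to 16.8) at deeper medians of 6042 and 5945.5 UMIs, with 24.3 and 29.4 CPM. Cluster 24 was singled out after its values were seen.

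Pcp2 had 84.5% of its kept UMIs in rod bipolar-like cells in control and 71.2% in STZ. Those cells were 17.2% of kept cells in control and 9.83% in STZ, so the shares depend on cell makeup too. Pcp2 also split the cone bipolar clusters across the ON and OFF divide. In rod bipolar-like cells it was at 14281 (14165 to 14397) CPM in control and 15937 (15802 to 16072) in STZ, a log2 ratio of 0.16 (0.14 to 0.18). In control ON clusters 8 and 15 had 197 and 808 CPM and ON clusters 4, 16 and 24 had 3402, 3845 and 4873, while OFF clusters 5 and 11 had 246 and 2786. In STZ these 7 values were 326, 1371, 2503, 3944, 6356, 383 and 2932. Cluster 8 had the least Pcp2 of the ON cone clusters in both libraries, with intervals that overlapped those of OFF cluster 5. It had the highest Grm6 value too, though in STZ its interval overlapped that of cluster 15.

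Prkca was concentrated in rod bipolar-like cells, which held 94.4% of its kept UMIs in control and 85.2% in STZ, shares that depend on cell makeup too. It was at 2235 (2189 to 2281) CPM there in control and 2536 (2482 to 2590.2) in STZ, a log2 ratio of 0.18 (0.14 to 0.23). ON cone bipolar-like cells had 20.02 CPM (71 UMIs) and 43.7 (177 UMIs), a ratio of 1.13 (0.72 to 1.54). Cone-like cells had 16.9 and 29.4 and Müller glia-like cells 14.7 and 28.0. Rod-like cells had 144 and 144, pericyte-like cells 32.4 and 27.7, and amacrine-like cells 228 and 184. Endothelial-like cells had 11.9 CPM in control, the lowest level of the 10 classes compared. In STZ they and pigment epithelium-like cells lay above ON cone bipolar-like cells. The direction thus differed between classes outside rod bipolar cells. The part of free RNA in the ratio of ON cone bipolar-like cells was not tested beyond taking off the lowest level of 3 other classes, which left it at 0.98. Cluster 24 had more Prkca than the other ON cone clusters, 120.1 (79.2 to 175) and 150.3 (119 to 187) CPM against 10.3 to 16.2 and 20.9 to 49.4. It also had the rod bipolar marker Car8 at 227 and 416 CPM, against 1267 and 1111 in rod bipolar cluster 2.

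**Figure D2:**
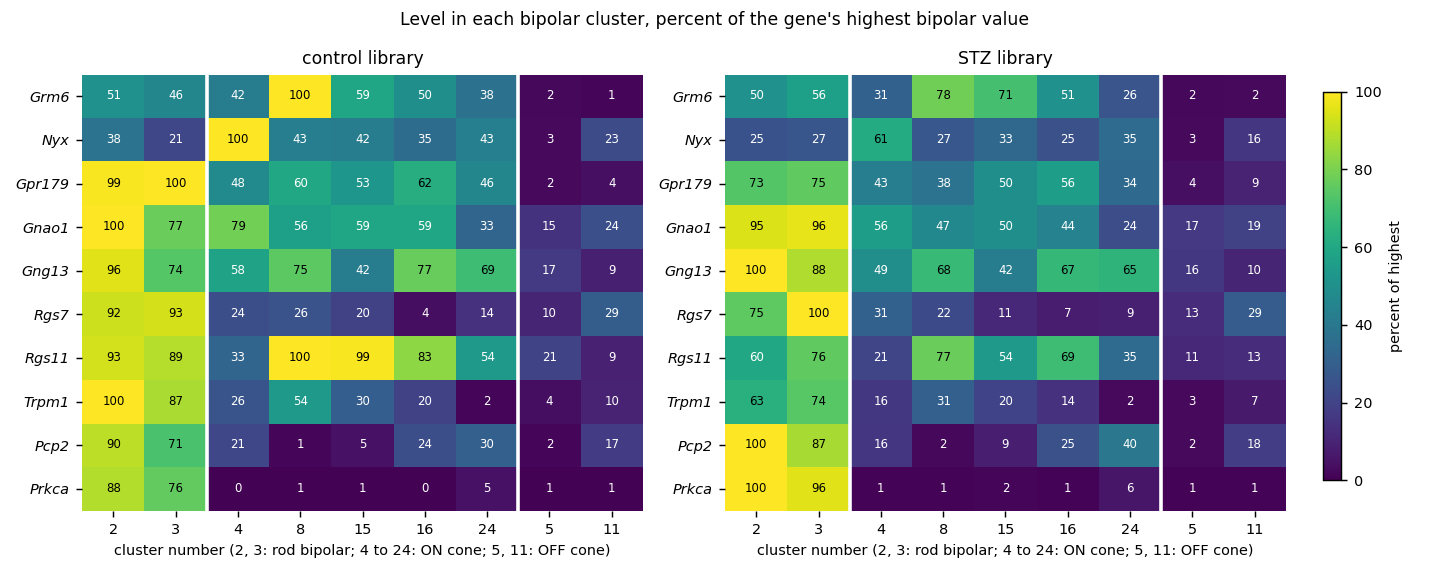
Level of each gene in the 9 bipolar clusters as a percentage of that gene's highest bipolar value in either library, control library on the left and STZ library on the right, with white lines between rod bipolar, ON cone bipolar and OFF cone bipolar clusters. Trpm1 in cluster 24 (84.5 and 113 CPM) and Pcp2 in cluster 8 (197 and 326 CPM) are the lowest values of these genes among the ON cone clusters. Pcp2 in cluster 15 (808 and 1371 CPM) is also near the low end of the scale.

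Counted over the set, 2 of 10 genes, Trpm1 and Rgs11, were at least 1.5-fold lower in STZ in rod bipolar-like cells and 0 were higher, against 5.89% and 4.82% of the 7918 genes measured there (those with 20 or more UMIs and a pooled level of 10 CPM or more). The median log2 ratio was -0.17 over the 10 genes and -0.01 over all. In ON cone bipolar-like cells 1 gene was lower, Trpm1, and 1 higher, Prkca (4.64% and 4.83% of 8764 genes), with medians of -0.35 and -0.02. In OFF cone bipolar-like cells 0 were lower and 2 higher, Gpr179 and Prkca (7.96% and 7.79% of 8776 genes), with medians of 0.09 and -0.03. The ratio of Prkca in OFF cells, 0.66 (-0.11 to 1.47), has an interval that includes 0. Other measures moved with the library in rod bipolar-like cells. Mitochondrial genes took 12.8% of UMIs in control and 15.2% in STZ, the 8 cone markers, all seen, summed to 423 and 477 CPM, and the 5 rod bipolar markers to 3715 and 3032. In cells with 500 genes or more and no more than 10% mitochondrial UMIs, 272 control and 113 STZ rod bipolar-like cells, the ratio was -0.53 for Trpm1 and -0.39 for Rgs11, and 0 genes were 1.5-fold lower.

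**Figure D3:**
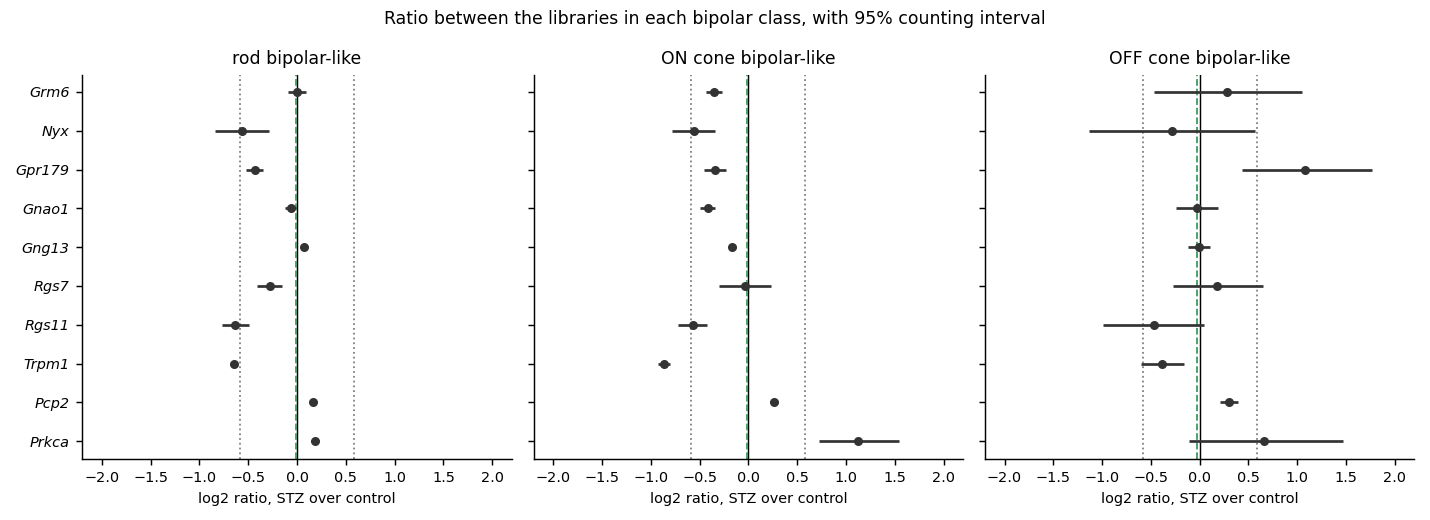
Log2 ratio of STZ over control for each gene in rod, ON cone and OFF cone bipolar-like cells, with 95% counting intervals; the solid line marks no difference, dotted lines 1.5-fold and the dashed line the median of all measured genes of the class. Trpm1 is the lowest point in both ON classes, at -0.65 and -0.87.

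Trpm1 was also lower in STZ within single clusters. Of the 8 bipolar clusters with at least 30 cells in both libraries, 7 had a Trpm1 interval below 0. The ratio was -0.66 (-0.69 to -0.62) in rod bipolar cluster 2, and -0.69, -0.81, -0.58 and -0.48 in ON cone clusters 4, 8, 15 and 16. It was -0.53 and -0.41 in OFF clusters 5 and 11, and 0.42 (-0.34 to 1.25) in cluster 24. Cluster 24 made up 6.72% of ON cone bipolar-like cells in control and 14.96% in STZ. Without it the class ratio was -0.78, and the mean of the 5 cluster ratios at equal weight was -0.43, short of 1.5-fold. Rgs11 had a negative ratio in 7 of the 8 clusters, from -0.27 (-0.57 to 0.04) in cluster 16 to -0.87 (-1.53 to -0.24) in OFF cluster 5, and 0.47 (-0.50 to 1.51) in OFF cluster 11. Grm6 had no common direction. It was at -0.44 (-0.64 to -0.24) in cluster 4, -0.35 (-0.47 to -0.23) in cluster 8 and -0.52 (-0.91 to -0.12) in cluster 24. It was at 0.26 (0.02 to 0.50) in cluster 15, and in clusters 2, 16, 5 and 11 its interval included 0.

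By cluster, the counts of genes at least 1.5-fold lower and higher in STZ are given with the share of all genes. They were 2 and 0 in cluster 2 (6.02% and 5.04% of all genes) and 3 and 1 in cluster 4 (9.87% and 10.5%). Cluster 8 had 3 and 2 (10.3% and 7.68%), cluster 15 had 2 and 2 (11% and 10.7%), and cluster 16 had 0 and 2 (9.79% and 10.3%). In cluster 24 they were 2 and 0 (13.1% and 14.7%), in OFF cluster 5 they were 1 and 3 of 9 measured (9.8% and 9.93%), and in OFF cluster 11 they were 0 and 2 (12.6% and 11%). Trpm1 passed the threshold in clusters 2, 4 and 8, and Rgs11 in clusters 2, 4, 15, 24 and 5. Whether the ratios differ between clusters was not tested.

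**Figure D4:**
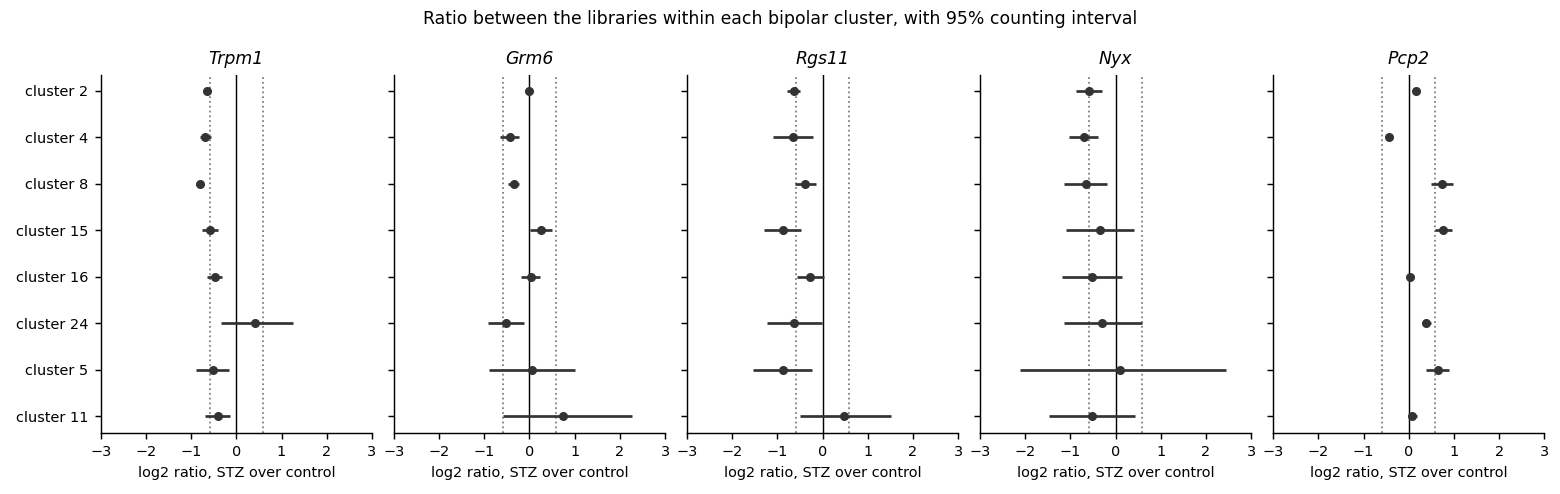
Log2 ratio of STZ over control of Trpm1, Grm6, Rgs11, Nyx and Pcp2 within each of 8 bipolar clusters, with 95% counting intervals; dotted lines mark 1.5-fold. Trpm1 lies between -0.81 and -0.41 in every cluster but cluster 24.

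A finer clustering, at resolution 2.0, split rod bipolar-like cells mostly by library. It gave a cluster of 820 control and 40 STZ cells, a cluster of 23 control and 696 STZ cells, and a mixed cluster of 30 and 26 cells. In the mainly control cluster Trpm1 was at 4611 CPM in control and 2719.6 in STZ cells, a log2 ratio of -0.76 (-0.94 to -0.59). In the mainly STZ cluster it was at 4854 and 2923, -0.73 (-0.85 to -0.61). In both clusters the few cells of the other library had a Trpm1 level near that of their own library. The mixed cluster had 3691 and 3207, a smaller difference of -0.20 (-0.40 to -0.01). Rgs11 was at -0.57 (-1.26 to 0.05), -0.58 (-1.08 to -0.04) and -0.40 (-1.21 to 0.37) in the same 3 clusters, and Grm6 at -0.13 (-0.57 to 0.28), -0.22 (-0.56 to 0.14) and 0.43 (-0.06 to 0.93).

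Shares of cells with a transcript were compared with each cell thinned to 500 UMIs, since depth differed. Trpm1 was then seen in 86.8% (84.4 to 88.9) of control and 74.5% (71.4 to 77.5) of STZ rod bipolar-like cells. Before thinning the shares were 100% and 99.1%. In ON cone bipolar-like cells the thinned shares were 51.8% (48.5 to 55.1) and 33.2% (30.5 to 36.1), and 89.6% and 79.3% before. Of the thinned rod bipolar-like cells, 41.6% of control and 21.4% of STZ cells kept 3 or more Trpm1 UMIs. Thinned shares in Müller glia-like cells were 0.787% and 1.59%. Grm6 was in 24.6% (21.8 to 27.5) and 20.8% (18.0 to 23.7) of thinned rod bipolar-like cells, with overlapping intervals, and in 87.6% and 82.4% before thinning. Most rod and ON cone bipolar-like cells held many members at once before thinning. The median number of the 10 genes seen per cell, before thinning, was 9 in control and 8 in STZ rod bipolar-like cells, 6 and 6 in ON cone and 3 and 3 in OFF cone bipolar-like cells, and after thinning 5 and 4, 3 and 2, and 1 and 1.

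**Figure D5:**
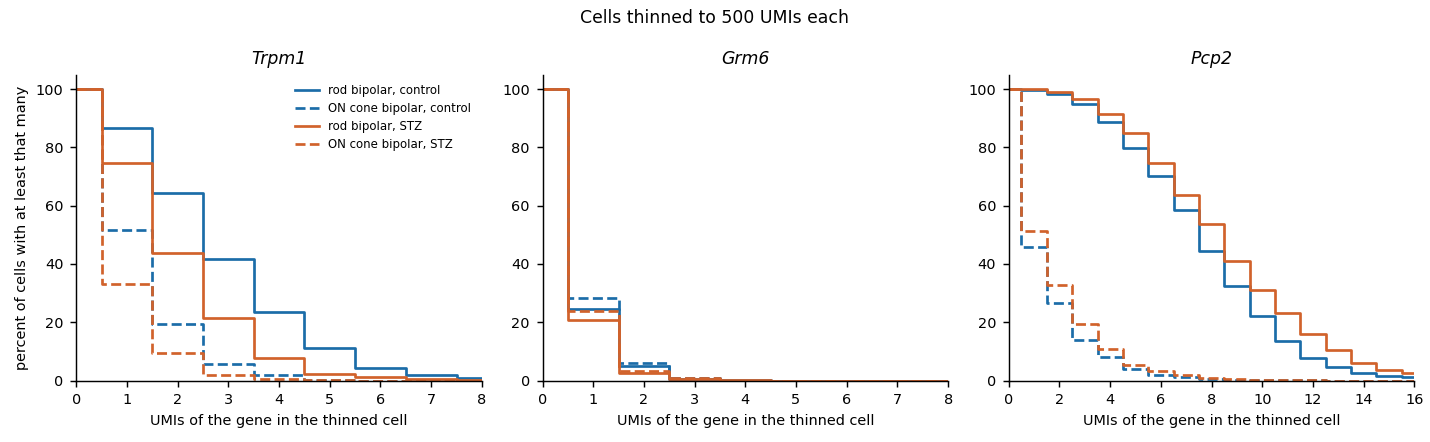
Percentage of cells with at least a given number of UMIs of Trpm1, Grm6 or Pcp2 after each cell was thinned to 500 UMIs, for rod bipolar-like (solid) and ON cone bipolar-like (dashed) cells, control and STZ libraries in blue and orange. For Trpm1 the STZ curves lie below the control curves, and at 3 UMIs the rod bipolar-like values are 41.6% and 21.4%.

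Outside bipolar cells, the abundant members were found in every class compared, at levels below those of rod bipolar-like cells. Pcp2 was at 93.7 CPM in Müller glia-like, 151 in endothelial-like and 374 in pigment epithelium-like cells in control, and at 140.5, 920.2 and 761 in STZ. The last 2 values were above those of STZ ON cluster 8 and OFF cluster 5, 326 and 383 CPM. In endothelial-like cells 6 of 6 measured genes were at least 1.5-fold higher in STZ and 0 lower (19.6% and 17.3% of all genes). The median depth of these cells was 3170 UMIs in control and 949 in STZ. The filter for measured genes pools both libraries, so a gene low in one can pass through the other. Grm6 in endothelial-like cells, with 3 control and 19 STZ UMIs, is such a case. The counts in this paragraph are therefore partly set by the filter and are not evidence of a rise. The counts higher and lower were 5 and 0 of 6 in pigment epithelium-like cells (23.1% and 18.2%), 3 and 0 of 6 in cone-like cells (5.08% and 3%), and 3 and 0 of 7 in rod-like cells (7.8% and 9.53%). They were 3 and 0 of 5 in pericyte-like cells (13.1% and 10.9%), 1 and 0 of 6 in amacrine-like cells (16.1% and 13.8%), and 1 and 1 of 7 in Müller glia-like cells (4.83% and 2.9%). The gene lower in Müller glia-like cells was Rgs11, at 25.5 (21.8 to 29.6) CPM in control and 14.5 (11.2 to 18.4) in STZ.

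The lowest level among Müller glia-like, endothelial-like and pericyte-like cells gives a low measure of free RNA, as higher levels in the other classes are set aside. For Trpm1 it was 0.530% of the rod bipolar level in control and 1.001% in STZ, and 8.93% and 14.1% of the OFF cone bipolar level. For Prkca it was 59.3% and 63.3% of the ON cone and 69.2% and 102.1% of the OFF cone bipolar level, so Prkca in OFF cone bipolar-like cells lies near that measure. In STZ, Trpm1 was at 131 CPM in endothelial-like cells, far above the 29.4 of Müller glia-like cells that gave its measure. OFF cone bipolar-like cells had 209 there. Pigment epithelium-like cells, a melanin-bearing type in which Trpm1 is known to be expressed, had 135 (71.9 to 231) CPM of it in control, from 13 UMIs, and 349.6 (288 to 420.3) in STZ, from 113 UMIs. The part of free RNA in these levels was not tested. In STZ their Trpm1 level was above that of OFF cone bipolar-like cells, with no overlap of intervals.

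Of the 32 other cascade genes, 21 were measured in rod bipolar-like cells, where 3 were at least 1.5-fold lower in STZ and 0 higher (5.89% and 4.82% of all genes), with a median log2 ratio of -0.08. Rgs7bp, which encodes a membrane anchor of RGS7-family proteins, was at 108 CPM in control and 61.5 in STZ, a log2 ratio of -0.82 (-1.06 to -0.57). Gria1, an AMPA receptor gene, was at 78.8 and 47.8, -0.72 (-1.005 to -0.44), and Grik1 at 31.6 and 19.7, -0.68 (-1.13 to -0.24). Rgs9, best known from photoreceptors, was at 10.7 and 15.5, 0.54 (-0.07 to 1.15). In ON cone bipolar-like cells 0 of 25 measured genes were lower and 1 higher (4.64% and 4.83%), with a median of -0.12. The higher gene was Gnai1, an inhibitory G alpha gene, at 7.90 and 14.8 CPM, 0.91 (0.24 to 1.61). Gnaz, another G alpha gene, had a ratio of -0.52 (-1.21 to 0.15) there, and the glutamate receptor gene Grm5 one of -0.46 (-0.59 to -0.33). In OFF cone bipolar-like cells 0 of 25 were lower and 2 higher (7.96% and 7.79%), Grm5 at 9.37 and 19.7 CPM, 1.07 (0.08 to 2.17), and Rgs16 at 14.8 and 23.4, 0.66 (-0.17 to 1.54). Ric8b and Gpr158 had ratios of -0.44 (-1.06 to 0.19) and -0.43 (-1.51 to 0.65) there.

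Likeness of pattern was measured as Pearson r of log2(CPM + 10) over 20 points, 10 classes in each library, which share library, depth and free RNA. Of 6587 genes, the 10 members left out, the 5 most like Grm6 were Isl1 (0.985), Igfn1 (0.974), Grm5 (0.973), Bhlhe23 (0.962) and Fam135b (0.940). Isl1 and Igfn1 were among the markers that named the ON cone bipolar classes. Those most like Trpm1, again outside the 10, were Qpct (0.945), Bhlhe23 (0.938), Fam135b (0.932), Hecw1 (0.932) and Trnp1 (0.926). In rod bipolar-like cells Hecw1 was at 221 CPM in control and 140.3 in STZ, while Qpct was at 1029 and 962 and Bhlhe23, a transcription factor gene of rod bipolar cells, at 197 and 212. Of these 3 genes, Hecw1 alone was lower in STZ by more than 1.5-fold. Among the members, Trpm1 was closest to Gng13 (0.971) and Pcp2 (0.967) and had 0.909 with Grm6, while Prkca had 0.369 to 0.635 with the other members.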

How the data were processed

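Droplet single-cell RNA-seq (10x Chromium 3′ kit) was available for 1 control and 1 STZ library. The deposited table holds UMI counts per gene and cell. The authors used Cell Ranger 3.0.1, Seurat 3.0 and build mm10, per the submitters' processing notes. Cells were assigned to libraries by the ending of their names.

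Cells with 200 genes or more and 20% or less mitochondrial UMIs were kept. Scrublet marked 0.732% of control cells, which were removed. In STZ it marked 0.011%, so the 628 highest scores were removed, at a doublet rate that rises with the number of cells loaded. Cells were clustered with scanpy 1.11.5 (2000 variable genes, 30 components, 15 neighbours, Leiden resolution 1.0), leaving out the 10 genes and 32 other cascade genes. A cluster took a class name when 3 or more of its markers led, a rule chosen after the clusters were seen. Of the 26 clusters, 3 stayed unnamed (198 control and 1965 STZ cells). Rebuilt names may differ from the study's own.

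UMIs were summed per class and library and divided by all UMIs of the class. Intervals are exact Poisson for CPM, Clopper-Pearson for shares and conditional binomial for ratios, computed with scipy 1.17.1. Only the ratio intervals were tested on simulated counts, which were Poisson and held no variation between cells or animals. All intervals cover counting error only. Whether fewer transcripts per cell or a different mix of cells underlies a summed level was followed only through clusters. All 10 genes are named in the bipolar classes, with the 4 other cascade genes of largest ratio per class and the 5 genes most like Grm6 and Trpm1. Results that need 2 other genes are not reported here. The members, lists and rules were chosen with earlier results of these data known. Alternatives covered cell filters, doublets, clustering, depth, scaling, free RNA, shared barcodes and cluster makeup.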

Additional observations from a re-analysis of the deposited data

How the results depend on the processing

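Of 419 alternative values of single genes under 16 settings, 370 lay inside the counting interval of the reported value, 48 lay outside it, and 1 whose reported interval left out 0 changed sign: Gnao1 in rod bipolar-like cells was at 0.0068 within the clusters of resolution 2.0. Values whose interval includes 0, such as Grm6 in rod bipolar-like cells, also took either sign. The 3 settings about cluster makeup were chosen after seeing the data: those clusters, and the ON cone class without cluster 24, pooled or averaged over clusters. In rod bipolar-like cells the genes at least 1.5-fold lower in STZ, 2 as reported, numbered 0 with the stricter cell filter (Trpm1 -0.53) and 1, Nyx, within the clusters of resolution 2.0 (Trpm1 -0.57, Rgs11 -0.52). In ON cone bipolar-like cells the count, 1 as reported, was 2 with no cell filter, with doublets kept, with thinned cells, with the mean over cells and with free RNA taken off. It was 0 within clusters at equal weight, where Trpm1 was at -0.43, and 1 there without cluster 24, with Trpm1 at -0.64. Resolutions 0.5 and 2.0 returned the same ON cone bipolar-like cells as 1.0, so they bear little on that class. In OFF cone bipolar-like cells the lower count was 1 in place of 0 with the stricter filter, and the higher count 1 in place of 2 with no filter, the stricter filter, thinned cells (Gnao1, 0.73) and free RNA taken off. The causes were not tested. Grm6 in rod bipolar-like cells ranged from -0.35 (thinned) to 0.23 (stricter filter). Both settings keep fewer UMIs, and the counting error of the alternative values themselves was not taken into account. Counts of few UMIs limit Nyx and Rgs7 in single clusters and most members in OFF cells. No paired analysis was possible because each group is 1 library.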

Other observations

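UMIs of members were also counted in cells that were not compared. An unnamed cluster of 1439 STZ and 10 control cells, with a median of 673 UMIs per STZ cell, had Pcp2 at 4054 CPM, Gng13 at 2022, Trpm1 at 479 and Grm6 at 196 in STZ. A cluster of 41 neutrophil-like cells, all from the STZ library, had Pcp2 at 1890.4 CPM and Trpm1 at 859, with a Pcp2 UMI in 95.1% and a Trpm1 UMI in 78.0% of cells. That Trpm1 level is close to the 848 CPM of STZ ON cone bipolar-like cells. It lies far above the low measure of free RNA in STZ, 29.4 CPM. The part of free RNA or of doublets in the levels of these 2 clusters was not tested, so they do not show that such cells express the genes. The share of kept Trpm1 UMIs held by rod bipolar-like cells was 75.3% in control and 65.9% in STZ. This share depends on cell makeup too. Rod bipolar-like cells were 17.2% of kept cells in control and 9.83% in STZ, and unnamed cells 3.75% and 23.9%.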
